A study of Mus musculus with 9 samples.

Results

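The genes described here encode 10 enzymes of serine synthesis and of the folate pathway that carries single-carbon units. They are Phgdh, Psat1, Psph, Shmt1, Shmt2, Mthfd2, Mthfd2l, Mthfd1l, Aldh1l1 and Aldh1l2. Their probes were found by the RefSeq accession in the array annotation, and all 10 were among the 15013 genes tested. Of the 10 enzymes, 5 work in mitochondria (Shmt2, Mthfd2, Mthfd2l, Mthfd1l and Aldh1l2), and the other 5 (Shmt1, Phgdh, Psat1, Psph and Aldh1l1) in the cytosol. They were measured by 15 probes, and every one of these was well above background on all 9 arrays.

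RNA came from mouse embryonic stem (ES) lines of 3 genotypes, called PKm2KI, PKm1KI and wild type in the labels and PKM2 knock-in, PKM1 knock-in and wild type here. Each line was sampled undifferentiated with the cytokine LIF (day 0) and as embryoid bodies in floating culture without LIF on day 3 and day 7. There was 1 one-colour Agilent array per line and day, so a day comparison rests on 3 lines and a line comparison on 3 days. Each genotype is 1 cell line, and the labels give neither the construction of the knock-in alleles nor the number of clones, the age or strain of the source, or the use of feeder cells. No separate cultures of a line on a day are described, so p-values do not measure the spread between repeated cultures. In the main fit they rest on how far these 9 samples depart from 1 effect per line plus 1 effect per day.

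Serine is made from the glycolytic intermediate phosphoglycerate by Phgdh, Psat1 and Psph in turn. Serine hydroxymethyltransferases, Shmt1 in the cytosol and Shmt2 in mitochondria, split serine into glycine and a carbon unit bound to tetrahydrofolate. The mitochondrial arm then oxidises that unit through Mthfd2 or Mthfd2l and releases it as formate through Mthfd1l, while Aldh1l1 and Aldh1l2 oxidise formyl-tetrahydrofolate to carbon dioxide and make NADPH. Pyruvate kinase M1 and M2 are splice forms of the enzyme that closes glycolysis, and serine is a known allosteric activator of the M2 form. Mouse ES cells are known to draw carbon units from threonine as well, through the dehydrogenase Tdh.

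Levels are given as the log2 of the Agilent processed signal after each array was scaled to the same 75th percentile. Levels of different probes are not comparable, so only changes of the same probe between arrays are set against each other. A gene was called changed at an adjusted p under 0.05 in limma's moderated test, adjusted by Benjamini-Hochberg over all 15013 genes. Between 54.2% and 61.6% of spots per array were well above background and no spot was saturated, and precision is limited by how many arrays there are. The label of ES cells was checked with 10 pluripotency genes, all of them well above background on all 9 arrays, and Pou5f1, the defining ES transcription factor, lay between 13.08 and 15.17. Because this held for the embryoid bodies too, it does not tell day 0 from the later days. Against day 0, 6 of the 10 were lower on day 3, with only Klf4 called (-2.13 ± 0.28, adjusted p 0.0229 by limma). On day 7, 9 were lower and none was called. Arrays came from 3 slides. Slide 1 held 5 arrays (wild type day 0 and day 7, PKM1 knock-in day 3, PKM2 knock-in day 0 and day 3), slide 2 held 3, and the PKM2 knock-in array of day 7 was alone on its slide.

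Between day 0 and day 3 the formyl-tetrahydrofolate dehydrogenases and Mthfd2 fell. Of the 10 genes 3 were called, all of them lower on day 3, while 4.05% of all genes tested were called in that comparison and 2.2% were called lower. Aldh1l2 fell most, Aldh1l1 and Mthfd2 less, and the serine synthesis genes did not pass the test. Mthfd2 and Aldh1l1 fell in the same comparison, and both have a promoter window in the RefSeq table of build GRCm38.p6, from 250 bases before to 50 bases after the annotated start. No window was available for Aldh1l2, the called gene that fell most. The windows of these 2 genes are printed because both were called lower, with CCAAT or its reverse complement in capitals. They lie at chr6:83317555-83317854 (minus strand) for Mthfd2 and chr6:90550543-90550842 (plus strand) for Aldh1l1.
Mthfd2: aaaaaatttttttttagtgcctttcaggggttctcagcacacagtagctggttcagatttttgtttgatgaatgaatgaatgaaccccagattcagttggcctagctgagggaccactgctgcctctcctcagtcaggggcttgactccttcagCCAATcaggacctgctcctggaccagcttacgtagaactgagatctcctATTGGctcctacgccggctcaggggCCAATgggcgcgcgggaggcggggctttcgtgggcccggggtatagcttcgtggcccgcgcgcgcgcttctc
Aldh1l1: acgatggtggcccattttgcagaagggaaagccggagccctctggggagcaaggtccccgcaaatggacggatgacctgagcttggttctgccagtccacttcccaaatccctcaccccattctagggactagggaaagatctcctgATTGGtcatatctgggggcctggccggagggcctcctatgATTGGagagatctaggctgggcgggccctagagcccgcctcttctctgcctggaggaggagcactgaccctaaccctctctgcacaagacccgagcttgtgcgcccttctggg
CCAAT, the letters recognised by the factor NF-Y, stood 3 times in the Mthfd2 window (2 forward and 1 reverse) and 2 times in the Aldh1l1 window, both reverse. It was found on either strand in 6 of the 10 windows of 9 enzyme genes and in 37.4% of all 32851 windows. A list of amino acid stress response genes described below had it in 14 of 25 windows. TGATGNAA, the core of the C/EBP-ATF response element, was in none of the 10 enzyme windows on either strand. It was in 3.97% of all windows and in 10 of the 25 windows of that list. CACGTG, the E-box bound by Myc and other factors, was in none of the 10, in 7.15% of all and in 3 of the 25. No matches overlapped in the printed windows, and these matches only describe the letters present.

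Aldh1l2 is the mitochondrial formyl-tetrahydrofolate dehydrogenase. Its log2 signal on days 0, 3 and 7 was 9.06, 6.09 and 7.74 in PKM2 knock-in cells, 9.05, 4.30 and 7.30 in PKM1 knock-in cells, and 8.01, 4.34 and 7.25 in wild type. Every day 3 array lay below every day 0 and day 7 array, and on day 3 PKM2 knock-in cells had the highest value. The mean was 4.91 ± 1.02 on day 3 and 8.71 ± 0.60 on day 0 (SD, n = 3 each). The fitted change was -3.80 ± 0.37 (SE), 13.9-fold lower on day 3, with an adjusted p of 0.0125 by limma. On slide 1 alone, which held both days of PKM2 knock-in cells, the change was -2.98. The scaled signal on day 3, 20.3 in wild type and 19.7 in PKM1 knock-in cells, was close to the weakest signal called well above background on those arrays (16.4 and 19.1). With a normexp background correction, which included an added offset of 50, the fall was -2.34, still called at an adjusted p of 0.00912 by limma. An added offset by itself makes changes of dim signals smaller. The call was lost without the wild type line (adjusted p 0.178 by limma), without the PKM1 knock-in (0.12), and without any 1 of their day 0 or day 3 arrays.

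Aldh1l1, the cytosolic dehydrogenase of the same reaction, had log2 signals of 10.14, 8.70 and 8.84 on days 0, 3 and 7 in PKM2 knock-in cells. They were 10.20, 9.03 and 9.86 in PKM1 knock-in cells and 9.34, 7.96 and 8.94 in wild type. In all 3 lines day 3 was the lowest point, and the day 3 and day 0 groups did not overlap. Its mean was 8.57 ± 0.55 on day 3 and 9.89 ± 0.48 on day 0 (SD, n = 3 each), a fitted change of -1.33 ± 0.25 with an adjusted p of 0.0425 by limma. That is 2.51-fold lower, against 13.9-fold for Aldh1l2, whose day 3 signals were near the dimmest detected in 2 of 3 lines, and with normexp the falls were 2.25-fold and 5.07-fold in that order of genes. In each line the mitochondrial gene changed by more than the cytosolic one, with differences between their log2 changes of -1.53 in PKM2 knock-in cells, -3.58 in PKM1 knock-in cells and -2.29 in wild type.

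Mthfd2 is the mitochondrial methylenetetrahydrofolate dehydrogenase of embryonic and dividing cells. Its log2 signal on days 0, 3 and 7 was 12.49, 11.70 and 12.18 in PKM2 knock-in cells, 12.74, 11.51 and 11.93 in PKM1 knock-in cells, and 11.44, 10.16 and 10.53 in wild type. All 3 lines were lower on day 3, yet the day groups overlapped because wild type lay below both knock-in lines on every day. The mean was 11.13 ± 0.84 on day 3 and 12.22 ± 0.69 on day 0 (SD, n = 3 each). The fitted change, which takes the line into account, was -1.10 ± 0.20 (2.14-fold lower, adjusted p 0.0402 by limma). Without the line term its adjusted p was 0.297, that of Aldh1l1 was 0.104, and only Aldh1l2 was still called. Removing the filter on dim probes raised the adjusted p to 0.0631 for Mthfd2 and 0.0748 for Aldh1l1, and the slide as a block raised that of Mthfd2 to 0.0628. Both calls were also lost without any 1 of the 3 lines, without any 1 of the 6 day 0 and day 3 arrays, or on leaving out wild type day 7.

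**Figure D1:**
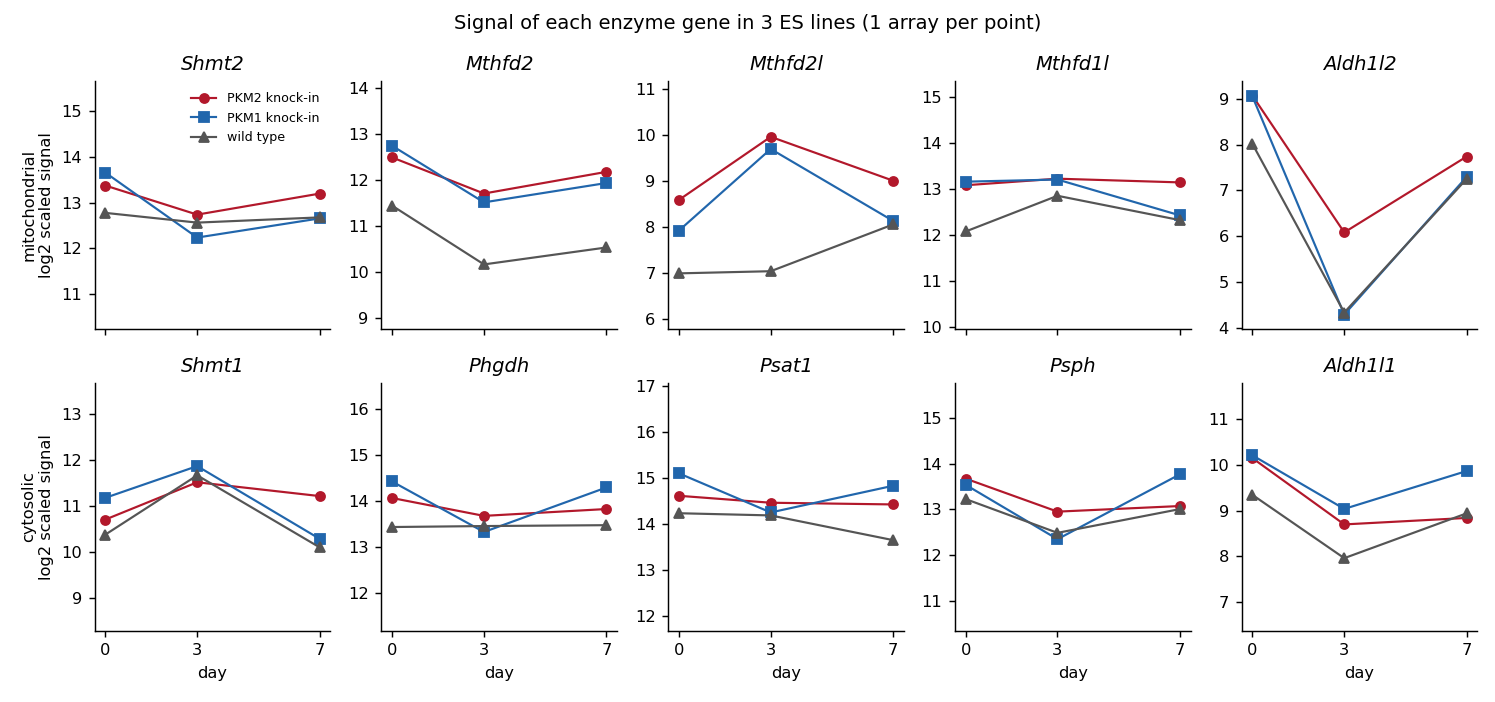
Log2 scaled signal (y axis) of the 10 enzyme genes on days 0, 3 and 7 (x axis), with mitochondrial enzymes above and cytosolic enzymes below. Each point is 1 array, each line joins the arrays of a cell line, and all panels span the same number of log2 units. Aldh1l2 has its lowest points on day 3 in all 3 lines, and wild type Mthfd2 lies below both knock-in lines on every day.

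The paralogue Mthfd2l, which catalyses the same step as Mthfd2 in mitochondria, was not lower on day 3 than on day 0 in any line. Its log2 signal on days 0, 3 and 7 was 8.58, 9.96 and 9.0 in PKM2 knock-in cells, 7.91, 9.69 and 8.13 in PKM1 knock-in cells, and 6.98, 7.03 and 8.05 in wild type. Day 3 was the highest point in both knock-in lines and day 7 in wild type. The fitted difference between day 3 and day 0 was 1.07 ± 0.47, with an adjusted p of 0.207 by limma. From day 3 to day 7 the single-array changes were -0.96 in PKM2 knock-in cells, -1.57 in PKM1 knock-in cells and 1.02 in wild type. With 1 array per line and day the difference between lines could not be tested. Mthfd1l, the mitochondrial formate-releasing enzyme, had a fitted difference of 0.32 ± 0.25 between day 3 and day 0 (adjusted p 0.458 by limma). Its log2 signals were 13.08, 13.22 and 13.14 in PKM2 knock-in cells, 13.16, 13.20 and 12.42 in PKM1 knock-in cells, and 12.07, 12.85 and 12.32 in wild type. The wild type array of day 0 was the lowest of the 9.

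Of the serine hydroxymethyltransferases, mitochondrial Shmt2 was lower and cytosolic Shmt1 higher on day 3 than on day 0 in all 3 lines, without a call for either. Shmt2 had 13.37, 12.74 and 13.19 on days 0, 3 and 7 in PKM2 knock-in cells, 13.65, 12.24 and 12.65 in PKM1 knock-in cells, and 12.77, 12.56 and 12.68 in wild type. Its day 3 and day 0 groups did not overlap, and the fitted difference was -0.75 ± 0.27 (adjusted p 0.142 by limma). Shmt1 had 10.70, 11.51 and 11.21 in PKM2 knock-in cells, 11.18, 11.87 and 10.28 in PKM1 knock-in cells, and 10.37, 11.66 and 10.10 in wild type. Its 3 day 3 arrays were above all day 0 and day 7 arrays. The fitted difference was 0.93 ± 0.32 for day 3 minus day 0 (adjusted p 0.137) and -1.15 ± 0.32 for day 7 minus day 3 (adjusted p 0.0943, both by limma). The change of Shmt2 minus that of Shmt1 from day 0 to day 3 was -1.44 in PKM2 knock-in cells, -2.10 in PKM1 knock-in cells and -1.50 in wild type. From day 3 to day 7 the same quantity was 0.76, 2.0 and 1.68 in that order of lines, with the opposite sign in each.

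None of the 3 cytosolic serine synthesis genes passed the test between days. Phgdh, the first and committed enzyme, had log2 signals of 14.06, 13.67 and 13.82 on days 0, 3 and 7 in PKM2 knock-in cells, 14.42, 13.32 and 14.29 in PKM1 knock-in cells, and 13.43, 13.45 and 13.47 in wild type. The 3 wild type arrays were nearly level, whereas the change from day 0 to day 3 was -1.10 in PKM1 knock-in cells. Psat1, the aminotransferase of the middle step, had 14.61, 14.46 and 14.42 in PKM2 knock-in cells, 15.10, 14.25 and 14.83 in PKM1 knock-in cells, and 14.23, 14.18 and 13.65 in wild type. The fitted differences between day 3 and day 0 were -0.49 ± 0.26 for Phgdh and -0.35 ± 0.25 for Psat1 (adjusted p 0.282 and 0.418 by limma). Psph, the phosphatase of the last step, had 13.67, 12.95 and 13.08 in PKM2 knock-in cells, 13.54, 12.35 and 13.77 in PKM1 knock-in cells, and 13.23, 12.49 and 13.01 in wild type. Its day 3 arrays were all below its day 0 arrays, with a fitted difference of -0.88 ± 0.27 and an adjusted p of 0.109 by limma. PKM1 knock-in cells showed the deepest day 3 dip of the 3 lines for all of these serine synthesis genes. All of these dips in a line come from the same single arrays, on different slides except in PKM2 knock-in cells. The difference between lines could not be tested.

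Set side by side, the mitochondrial and cytosolic enzymes had similar median changes between day 3 and day 0. The median fitted change was -0.75 over the 5 mitochondrial genes, of which 3 were lower, and -0.49 over the 5 cytosolic genes, of which 4 were lower, beside 0.09 over all genes tested. Single fitted changes ran from -3.80 to 1.07 among the mitochondrial genes, against -1.33 to 0.93 among the cytosolic genes. The wider spread came from Aldh1l2 alone, whose day 3 signals were near the dimmest detected in wild type and PKM1 knock-in cells. Without Aldh1l2 the mitochondrial changes ran from -1.10 to 1.07. Of the 10 genes 5 had day 3 and day 0 groups that did not overlap, beside 36.3% of all genes. Scaling to the 75th percentile of the detected probes alone shifted the median of all genes by -0.17 for day 3 minus day 0 and by 0.19 for day 7 minus day 3, and the 3 calls stayed.

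By day 7 none of the 10 genes was called against day 0, beside 0.0933% of all genes, although 9 of 10 were lower in the fit. Aldh1l2 was still lower on day 7 than on day 0 in all 3 lines, by -1.28 ± 0.37 (adjusted p 0.222 by limma), and its groups did not overlap, as for 15.8% of all genes. Mthfd2 stood at -0.68 ± 0.20 and Aldh1l1 at -0.68 ± 0.25 (adjusted p 0.223 and 0.293 by limma). Within a slide the day 7 minus day 0 change of Aldh1l2 was -1.75 in PKM1 knock-in cells (slide 2) and -0.76 in wild type (slide 1). The medians were -0.42 for the mitochondrial and -0.22 for the cytosolic genes, beside -0.04 over all genes.

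Between day 3 and day 7 no gene of the 15013 was called by limma (0%), and 4551 had an unadjusted p under 0.05. The groups of 3 of the 10 genes did not overlap, beside 31.7% of all genes. Aldh1l2 was higher on day 7 in all 3 lines, by 2.52 ± 0.37, 5.74-fold, with an adjusted p of 0.0689. It was called when only probes detected on all 9 arrays were tested (adjusted p 0.0474), with trended robust moderation (0.0484), and with the slide as a block (0.0404), which drops the PKM2 knock-in array of day 7. Shmt1 was called lower, by -1.55 (adjusted p 0.0442 by limma), with that block, under which 987 of all genes tested were called. With PKM2 knock-in day 7 left out, 3 of the 10 genes were called by limma, beside 2389 of all genes tested. The 3 were Aldh1l2 (adjusted p 0.0204), Shmt1 (0.0212) and Aldh1l1 (0.0366). The day 3 arrays serve in both day comparisons, so a low day 3 value lowers one and raises the other.

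**Figure D2:**
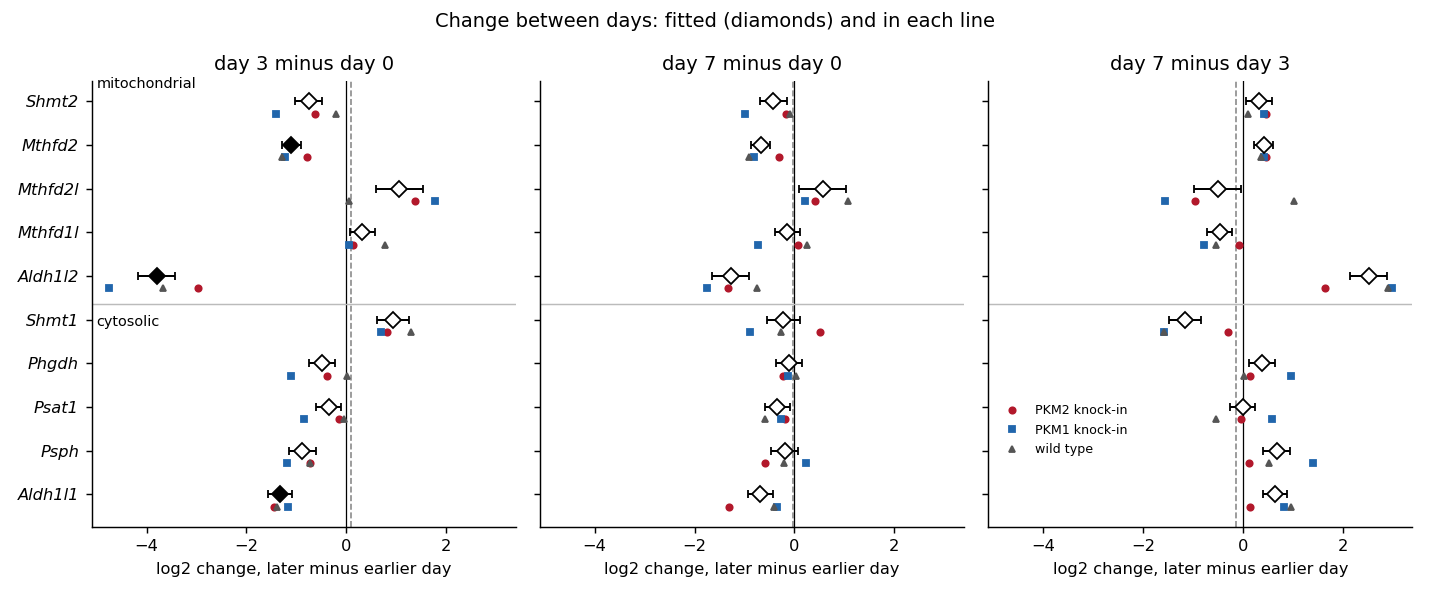
Log2 change between days (x axis, later minus earlier) for the 10 genes (y axis). Diamonds with bars are the fitted change ± SE over 3 lines, filled where the adjusted p was under 0.05, small coloured symbols are the single-array change in each line, and the dashed line is the median of all genes tested. Only Aldh1l2, Aldh1l1 and Mthfd2 are filled, all for day 3 minus day 0.

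Other genes of the pathway were called in both directions on day 3. Of 11 further folate enzymes, mostly cytosolic and nuclear, 7 were higher and 4 lower on day 3 than on day 0, with a median of 0.59 and no call. The largest fitted differences were those of Atic (1.22 ± 0.27, adjusted p 0.0624 by limma) and Gart (1.13 ± 0.29, adjusted p 0.0795 by limma), enzymes that use formyl-tetrahydrofolate to build purines. Among 5 folate transport genes Slc25a32, the mitochondrial folate carrier, rose by 1.04 ± 0.20 (adjusted p 0.0471 by limma). Of 9 tested genes of the methionine cycle and transsulfuration, Ahcy, which hydrolyses S-adenosylhomocysteine, rose by 1.26 ± 0.26 (adjusted p 0.0499), and Cth, which makes cysteine from cystathionine, fell by 1.55 ± 0.30 on the log2 scale (adjusted p 0.0469, both by limma). Among 8 tested genes of serine transport and use, Sfxn2, a mitochondrial sideroflexin, rose by 1.13 ± 0.18 (adjusted p 0.0339), and Srr, which converts L-serine to D-serine, changed by -2.05 ± 0.38 (adjusted p 0.0423, both by limma). Of 8 tested mitochondrial glycine and threonine genes 6 were higher and none was called, the largest fitted differences being those of Dmgdh (-2.88 ± 0.74, adjusted p 0.0806), a sarcosine-forming dehydrogenase, and Gcsh (0.84 ± 0.30, adjusted p 0.141, both by limma), a glycine cleavage subunit. Dmgdh was well above background on 4 of 9 arrays. Tdh, the threonine dehydrogenase, lay between 15.40 and 17.19 on the 9 arrays, with a fitted difference of 0.04 between day 3 and day 0.

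Genes of the amino acid stress response, which the factor Atf4 switches on and which include serine synthesis and mitochondrial folate genes, were lower on day 3 as a list. All 26 tested list genes, none of them among the 10 enzymes, were lower in the fit, with a median of -1.36, and 10 of them were called. The most changed of those called were Atf3 (-5.25 ± 0.99, adjusted p 0.0443), a stress-induced factor, Vldlr (-3.63 ± 0.50, adjusted p 0.0263), a lipoprotein receptor, Nupr1 (-3.12 ± 0.42, adjusted p 0.025), a stress regulator, and Slc7a11 (-2.87 ± 0.33, adjusted p 0.0181, all by limma), the cystine transporter. Atf4 itself differed by -0.23 ± 0.21 (adjusted p 0.541 by limma), and Myc, which is known to drive serine and folate genes, rose by 1.64 ± 0.30 (adjusted p 0.0422 by limma). On day 7 24 of the 26 were higher than on day 3, none called. The summed signal of the list was 494250 to 819755 on day 0, 323513 to 442607 on day 3 and 388048 to 533818 on day 7. Of 14 DNA replication and cell cycle genes 13 were higher on day 3 than on day 0, none called, led by the ribonucleotide reductase subunit Rrm1 (1.13, adjusted p 0.0627) and the sliding clamp Pcna (0.64, adjusted p 0.195, both by limma).

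Markers of some other cell types also moved with the days. All 18 tested fibroblast markers were lower on day 3 than on day 0, 7 of them called, with a median of -2.79. Their summed signal was 7606 to 21588 on day 0, 1209 to 2307 on day 3 and 1042 to 24930 on day 7. Dcn, a fibroblast proteoglycan, was 9.21 on day 0 in PKM2 knock-in cells, 13.40 in PKM1 knock-in cells and 13.39 in wild type, and between 4.75 and 6.87 on day 3. The 14 visceral endoderm markers summed to 7182 in PKM2 knock-in cells, 579305 in PKM1 knock-in cells and 11904 in wild type on day 7. The 7 parietal endoderm markers summed to 51445, 762539 and 149763 in that order of lines. Between day 0 and day 3 no visceral or parietal endoderm marker was called (medians -0.14 and -0.79). Nor was any mesoderm, neural or blood and endothelial marker (medians -0.42, -0.25 and -0.08). The part of these other cells in the changes of the 10 enzymes was not tested, and fewer cells of a type cannot be told apart from less RNA per cell.

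**Figure D3:**
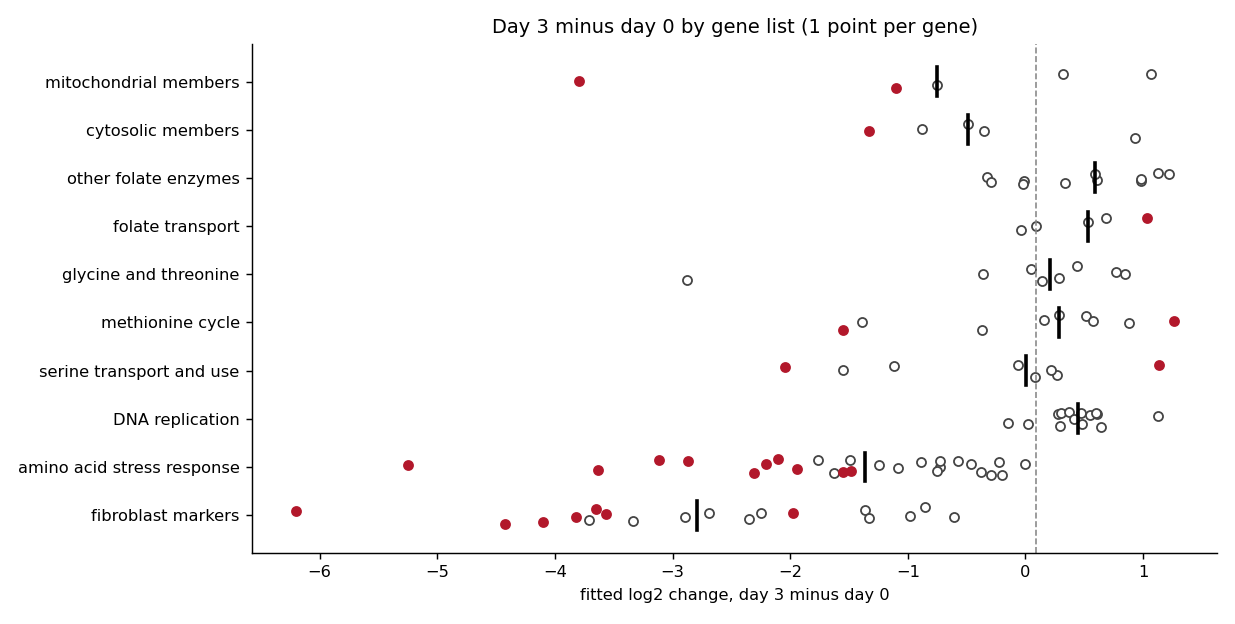
Fitted log2 change for day 3 minus day 0 (x axis) of each tested gene in 10 gene lists (y axis). Red points had an adjusted p under 0.05, black bars are list medians, and the dashed line is the median of all genes tested. The 26 amino acid stress response genes and the 18 fibroblast markers all lie below 0.

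Over the 9 arrays the pattern nearest to Aldh1l2 by Pearson correlation was that of Cryzl1 (r = 0.987), followed by Abhd13 (0.978), Atf5 (0.977), Pck2 (0.976) and Ttc14 (0.967). Atf5, a stress response factor, and Pck2, the mitochondrial phosphoenolpyruvate carboxykinase, belong to the stress list and changed by -2.10 and -2.21 from day 0 to day 3. The nearest to Mthfd2 were Lbx2 (r = 0.972), Mob1a (0.964), Cnot4 (0.951), Tnrc18 (0.950) and Acd (0.948). The nearest to Aldh1l1 were Ift122 (0.955), Bcl2l13 (0.941), Mipol1 (0.940), Rnf17 (0.936) and Decr1 (0.934). The points of each correlation share lines, days and slides. Lbx2 and Mob1a lie on chromosome 6 near Mthfd2, Mob1a as its next tested gene and Lbx2 10 tested genes away, and Cnot4, Ift122 and Bcl2l13 are on chromosome 6 too. Among the 10 enzymes themselves the correlation of the 45 pairs ran from -0.67 to 0.87 with a median of 0.44.

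Between lines none of the 10 genes was called, beside 0.0133% of all genes for PKM2 knock-in cells and 0.0133% for PKM1 knock-in cells, each against wild type. All 10 were nevertheless higher in the fit in both knock-in lines, beside 53.7% of all genes for PKM2 knock-in cells and 55.6% for PKM1 knock-in cells. These comparisons share the wild type arrays. The median difference from wild type was 0.48 for PKM2 knock-in cells and 0.54 for PKM1 knock-in cells, beside 0.04 and 0.05 over all genes. Most genes of 2 lists described above were higher too. In that order of lines, 20 and 22 of the 26 stress response genes were higher (medians 0.24 and 0.37). Of the 14 DNA replication and cell cycle genes 14 and 13 were higher (medians 0.36 and 0.13). Of the 11 further folate enzymes 7 and 6 were higher (medians 0.06 and 0.003). For PKM2 knock-in cells 5 of the 10 genes did not overlap with wild type, beside 14.4% of all genes, and for PKM1 knock-in cells 2 of 10, beside 10.2%. On day 0 each of the 10 genes was higher in each knock-in line than in wild type, with medians of 0.72 for PKM2 knock-in cells, whose array shared slide 1 with wild type, and 0.90 for PKM1 knock-in cells. Of the 15013 genes 8428 and 8923 were higher on day 0, with medians of 0.08 and 0.12, in that order of lines. On day 3 the difference was less uniform, with 9 of 10 higher in PKM2 knock-in cells (median 0.42) and 6 of 10 in PKM1 knock-in cells (median 0.13). On day 7, 9 of 10 were higher in each line, with medians of 0.65 and 0.47 in that order.

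Mthfd2 was higher in both knock-in lines than in wild type on every day. Its mean over the 3 days was 12.12 ± 0.40 in PKM2 knock-in cells, 12.06 ± 0.63 in PKM1 knock-in cells and 10.71 ± 0.66 in wild type (SD, n = 3 each). The lowest knock-in array, 11.51, was above the highest wild type array, 11.44, so the lines did not overlap. The fitted difference from wild type was 1.41 ± 0.20 for PKM2 knock-in cells (adjusted p 0.112) and 1.35 ± 0.20 for PKM1 knock-in cells (adjusted p 0.119, both by limma). With normexp background correction the first of these was called (1.37, adjusted p 0.0408 by limma). Mthfd2l had 1.82 ± 0.47 for PKM2 knock-in cells and 1.22 ± 0.47 for PKM1 knock-in cells (adjusted p 0.181 and 0.366 by limma), and Aldh1l2 had 1.09 ± 0.37 and 0.34 ± 0.37 (adjusted p 0.278 and 0.785 by limma). On day 3, on slide 1, Aldh1l2 was 1.79 higher in PKM2 than in PKM1 knock-in cells.

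By compartment, PKM2 knock-in cells had a median difference from wild type of 1.09 for mitochondrial and 0.43 for cytosolic genes, and with normexp 0.67 and 0.36. The 1.09 is the value of Aldh1l2, whose day 3 signal in wild type was near the dimmest detected. Mitochondrial Mthfd2 and Mthfd2l and cytosolic Aldh1l1 lay among neighbours that were also higher in both knock-in lines, as described below. In PKM1 knock-in cells the medians were 0.51 for mitochondrial and 0.56 for cytosolic genes. Between PKM2 and PKM1 knock-in cells no gene of the 15013 was called (0%), with 1193 at an unadjusted p under 0.05. All 5 mitochondrial genes were higher in PKM2 knock-in cells in that fit (median 0.25), against 2 of 5 cytosolic genes (median -0.16), and the groups of all 10 overlapped, while 7.54% of all genes did not. The split varied by day. Mitochondrial and cytosolic medians were -0.08 and -0.36 on day 0, where 2 of 5 mitochondrial genes were higher, and 0.27 and 0.21 on day 3. They were 0.54 and -0.47 on day 7, when the PKM2 knock-in array was alone on its slide. The cell type markers of these 2 lines also differed that day. Visceral endoderm markers summed to 7182 in PKM2 and 579305 in PKM1 knock-in cells, and pluripotency genes to 471216 and 211895. The part of cell type in the split was not tested. With the slide as a block Mthfd2 turned to -0.04, Phgdh to 0.28, Psat1 to 0.06 and Shmt1 to -0.26, so that 4 of 5 mitochondrial and 3 of 5 cytosolic genes were higher in PKM2 knock-in cells.

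Mthfd2, Mthfd2l and Aldh1l1, the 3 genes with the largest fitted differences in PKM1 knock-in cells, lay among neighbours with medians above 0 in both knock-in lines. In PKM2 knock-in cells Aldh1l2 (1.09), whose neighbours had a median of 0.04, stood in place of Aldh1l1 (0.48) among the 3 largest. For each of the 10 genes the 25 tested genes on either side in gene order were taken (27 in all for Mthfd1l, near a chromosome end). The 50 neighbours of Mthfd2 on chromosome 6 had a median difference of 0.83 in PKM2 knock-in cells and 0.77 in PKM1 knock-in cells, with 46 of 50 higher in each. Around Mthfd2l on chromosome 5 the medians were 0.74 and 0.70 in that order of lines, with 40 and 43 of 50 higher. Around Aldh1l1, also on chromosome 6, they were 0.66 and 0.69, with 37 and 40 of 50 higher. Neighbours of the other 7 genes had medians between -0.01 and 0.13 in PKM2 knock-in cells and between -0.10 and 0.17 in PKM1 knock-in cells. A neighbour median over 0.5 in both knock-in lines was found for 2.62% of all genes tested, 393 of 15013. On single days the neighbours of Mthfd2 stood at 0.84, 0.62 and 1.02 in PKM2 knock-in cells and 0.90, 0.67 and 0.82 in PKM1 knock-in cells, on days 0, 3 and 7. Mthfd2 exceeded its neighbours' median by 0.59 in each knock-in line, Mthfd2l by 1.08 and 0.52, and Aldh1l1 by -0.19 and 0.26, PKM2 knock-in before PKM1 knock-in. The part of these chromosome stretches in the line differences of the enzymes was not tested. In day 3 minus day 0 the neighbours of Mthfd2 had a median of 0.07, beside -1.10 for Mthfd2 itself.

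**Figure D4:**
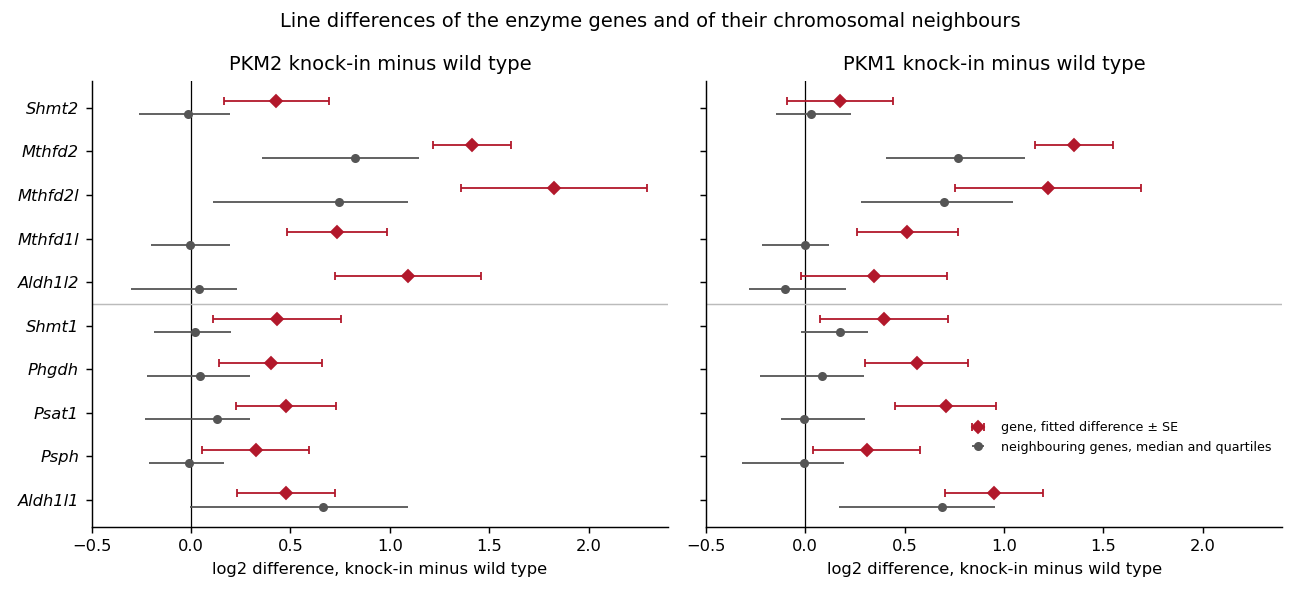
Fitted log2 difference from wild type (x axis) of the 10 genes (red diamonds, ± SE) and of the tested genes around each (grey circles, median with quartiles), for PKM2 knock-in cells on the left and PKM1 knock-in cells on the right. Neighbours of Mthfd2, Mthfd2l and Aldh1l1 lie to the right of 0 in both panels, those of the other 7 genes near 0.

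For 5 of the genes (Phgdh, Psat1, Psph, Shmt1 and Mthfd1l) the array held a second probe. In the day 3 minus day 0 comparison the paired probes gave -0.49 and -0.48 for Phgdh, -0.35 and -0.45 for Psat1, -0.88 and -0.89 for Psph, 0.93 and 0.72 for Shmt1, and 0.32 and 0.28 for Mthfd1l. Probes of a gene had the same sign in every comparison except Psat1 between day 3 and day 7, where both were within 0.01 of 0. The 3 genes called each had 1 probe, so no second probe bears on them.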

How the data were processed

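RNA of 9 samples was hybridised to 1-colour Agilent arrays with Cy3, per the labels' protocols. Intensity was extracted by the authors using the scanner software Agilent Feature Extraction 10.10 (submitters' processing notes), and the deposited processed signal is background-subtracted, per the file headers. The deposited intensity table holds the same values (largest difference 0.497%) and served as an alternative. Of 62976 spots per array, 3671 controls and 133 to 225 flagged spots were left out. Of 55681 probes, 27235 received 1 symbol through their accession and the RefSeq table, and 28446 received none and were not used here. Genome positions of that table served only for gene order, since the array files name another build.

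Signals were scaled to equal 75th percentiles, floored at 5 and taken as log2. Probes well above background on at least 3 arrays and measured on all 9 were kept, and the one with the highest mean stood for its gene. With limma 3.58.1 under R 4.3.3, a linear model holding a line and a day term took in the 9 arrays together, and it was checked on simulated data. The line term pairs the days, because the same cell line was sampled on each day. Genes were named by a fixed rule: all 10 enzymes with every probe, up to 4 called genes per pathway list or, without a call, up to 2 with the largest change, up to 3 genes per marker list, and the 5 genes nearest to each called enzyme by correlation. Tdh and Atf4 were added after their values were seen, as background to the pathway, and the comparison with neighbouring genes was likewise chosen after seeing the data. The enzymes, lists and tests were chosen with earlier results of these data known. Alternatives covered background correction, scaling, the source of values, filter, floor, probe choice, moderation, model terms, slide, and leaving out lines, days or arrays.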

Additional observations from a re-analysis of the deposited data

Results flagged for a closer look

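Mthfd2l between day 3 and day 7 moved in opposite directions in 2 lines, each by over 1 on the log2 scale. The single-array change was -1.57 in PKM1 knock-in cells and 1.02 in wild type, a difference of -2.58. With 1 array per line and day this difference was not tested.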

How the results depend on the processing

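The direction and call of the enzyme genes held under most alternatives: of the single-gene values, 1416 kept direction and side of the threshold, 31 lost a call, 10 gained one and 43 reversed, mostly values near 0. The fall of Aldh1l2 kept its call under all 13 alternatives other than leaving out a line, a day or an array in turn (adjusted p 0.00808 to 0.0373). Fewer than the 3 main enzyme calls for day 3 minus day 0 were found with no filter (1), with no replicate block (1), that is without the line term that pairs the days, and with the slide as a block (2).
All genes called for day 3 minus day 0, 608 in the report, numbered 929 with normexp, 149 with no filter, 1008 with trended robust moderation and 1433 with only the 6 arrays compared.
For day 7 minus day 0, 14 in the report, they numbered 5 with quantile normalization, 6 with scaling over detected probes, 4 with no filter, 1 with the filter on all 9 arrays, 23 with trended robust moderation, 9 with no replicate block and 0 with only the 6 arrays compared.
For day 7 minus day 3, 0 in the report, they numbered 35 with normexp, 3 with scaling over detected probes, 71 with the filter on all 9 arrays, 1 with a floor of 20, 260 with trended robust moderation, 6 with no replicate block and 987 with the slide as a block, and the enzymes called were 1 (filter on all 9 arrays), 1 (trended robust moderation) and 2 (slide as a block).
For PKM2 knock-in minus wild type, 2 in the report, they numbered 17 with normexp, 1 of them an enzyme (Mthfd2), 1 with no filter, with the filter on all 9 arrays and with a floor of 1 or 20, and 0 with only the 6 arrays compared or the slide as a block. For PKM1 knock-in minus wild type, 2 in the report, they numbered 5 with normexp, 1 with no filter, with the filter on all 9 arrays, with a floor of 1 or 20 and with the slide as a block, and 0 with only the 6 arrays compared.
Medians by compartment moved to 0.37 with normexp, 0.58 with quantile normalization and 0.52 with scaling over detected probes (mitochondrial, day 7 minus day 3), to -0.16 with normexp and -0.20 with scaling over detected probes (cytosolic, day 7 minus day 0), to 0.67 with normexp (mitochondrial, PKM2 knock-in minus wild type) and to 0.30 with quantile normalization (cytosolic, the same comparison).
Reversed were Psph for day 7 minus day 0 with the slide as a block (0.045), Psat1 for day 7 minus day 3 with the mean of probes (-0.0039) and the slide as a block (-0.028), and, for PKM2 minus PKM1 knock-in, with the slide as a block Mthfd2 (-0.043), Phgdh (0.28), Psat1 (0.062) and Shmt1 (-0.26), and Psph with normexp (-0.0013) and quantile normalization (-0.035).
Leaving out 1 array, line or day at a time, which leaves fewer samples in each fit, gave 0 to 3 enzymes called for day 3 minus day 0 and 0 to 3 for day 7 minus day 3. All genes called ranged from 0 to 1259 (day 3 minus day 0), 0 to 227 (day 7 minus day 0), 0 to 2389 (day 7 minus day 3) and 0 to 1 (each knock-in minus wild type), the highest each time for the day comparisons without PKM2 knock-in day 7. The cytosolic median ranged from -0.48 to -0.15 (day 7 minus day 0) and 0.31 to 0.62 (PKM2 knock-in minus wild type), and the mitochondrial median from 0.14 to 0.45 (day 7 minus day 3). Values that reversed in at least 1 of these fits ranged, for day 7 minus day 0, from -0.35 to 0.15 (Mthfd1l), -0.27 to 0.048 (Phgdh), -0.48 to 0.045 (Psph) and -0.61 to 0.12 (Shmt1). For day 7 minus day 3 they ranged from -1.26 to 0.031 (Mthfd2l) and -0.29 to 0.27 (Psat1), and for PKM1 knock-in minus wild type from -0.17 to 0.43 (Shmt2) and -0.011 to 0.70 (Aldh1l2). For PKM2 minus PKM1 knock-in they ranged from -0.044 to 0.23 (Mthfd2), -0.030 to 0.44 (Mthfd1l), -0.28 to 0.37 (Psph) and -0.41 to 0.29 (Shmt1). None of these reversed values was called in the reported comparisons. Apart from these fits the causes were not tested. Aldh1l2 on day 3 lay near the dimmest signals detected, and its fall was smaller with normexp (-2.34). That setting also added an offset of 50, and the parts of the offset and of the background estimate were not tested.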

Other observations

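Medians over whole chromosomes were also set side by side between lines. The median difference over all tested genes of chromosome 6, the stretches around Mthfd2 and Aldh1l1 included, was 0.19 in PKM2 knock-in cells and 0.34 in PKM1 knock-in cells, each minus wild type. Chromosome 8, which holds none of the 10 enzyme genes, had medians of 0.38 and 0.38. The other 18 chromosomes lay between -0.02 and 0.05 for PKM2 knock-in cells and between -0.03 and 0.12 for PKM1 knock-in cells. These values were computed after the line differences of the enzymes had been seen.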
